A study of Homo sapiens with 8 samples.

Results

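DDIT4 and 9 genes of the mTOR complexes and of the TSC switch that acts on them (MTOR, RPTOR, RICTOR, MLST8, DEPTOR, AKT1S1, TSC1, TSC2 and RHEB) were followed on all 8 arrays. They were chosen by name, with every probe set that the platform annotation gives to 1 of these genes and no other. This took in 25 of the 54675 probe sets on the array, and 10 of the 19775 genes named by a probe set. The cells were HT1080, a human fibrosarcoma cell line grown in glucose-containing RPMI-1640 with serum, and all groups come from this single line. Control cells had no added compound. The other groups in normal medium had 10 µM compound C (CC), 10 µM versipelostatin (VST) or 100 µM phenformin (Phen). The 2DG group had 10 mM 2-deoxyglucose (2DG), a glucose analogue that cannot be broken down in glycolysis, and the remaining groups had the same 2DG together with CC, VST or Phen at the doses above. Every group was treated for 18 h and is represented by 1 array. CC inhibits AMP-activated kinase (AMPK) and other kinases, VST is a macrocyclic compound from a microbe, and Phen is a biguanide that blocks mitochondrial respiration. The study asked how the compounds change the transcription programme that follows glucose deprivation. The present comparison asks how DDIT4 and the mTOR complex genes behaved in it.

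mTOR is a kinase that links nutrients and energy to growth, and it works in a pair of complexes. mTORC1 holds RPTOR, the scaffold that recruits substrates, and mTORC2 holds RICTOR. MLST8 sits in both complexes, DEPTOR inhibits both, and AKT1S1 (PRAS40) inhibits mTORC1. The small GTPase RHEB switches mTORC1 on, and TSC2, held stable by TSC1, switches RHEB off. DDIT4, also named REDD1, is a stress-induced protein that lowers mTORC1 activity through TSC1 and TSC2, and it is known as a target of HIF-1, p53 and ATF4. AMPK restrains mTORC1 through TSC2 and RPTOR.

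The region just before the transcription start is shown for DDIT4, RICTOR and TSC1, the members whose levels spread most over the arrays. Each line gives the 250 bases before the RefSeq start on the strand of the gene (GRCh38.p14), and the entries lie upstream of the annotated transcript. Capitals mark the letters ACGTG, the core of the element bound by hypoxia-inducible factors, CCAAT boxes (CCAAT, or ATTGG on the other strand) and GC boxes (GGGCGG, or CCGCCC on the other strand).
DDIT4, chr10:72273674-72273923, plus strand: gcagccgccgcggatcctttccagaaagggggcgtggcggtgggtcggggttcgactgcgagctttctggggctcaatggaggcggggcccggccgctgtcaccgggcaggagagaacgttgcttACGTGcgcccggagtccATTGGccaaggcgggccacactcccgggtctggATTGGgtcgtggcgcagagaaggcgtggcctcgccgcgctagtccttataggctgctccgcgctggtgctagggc
RICTOR, chr5:39074400-39074649, minus strand: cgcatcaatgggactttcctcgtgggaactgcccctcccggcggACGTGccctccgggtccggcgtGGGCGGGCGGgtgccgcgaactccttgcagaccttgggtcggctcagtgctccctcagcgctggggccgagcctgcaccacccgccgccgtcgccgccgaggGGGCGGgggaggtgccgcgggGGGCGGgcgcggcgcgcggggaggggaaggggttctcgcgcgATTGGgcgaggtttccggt
TSC1, chr9:132944617-132944866, minus strand: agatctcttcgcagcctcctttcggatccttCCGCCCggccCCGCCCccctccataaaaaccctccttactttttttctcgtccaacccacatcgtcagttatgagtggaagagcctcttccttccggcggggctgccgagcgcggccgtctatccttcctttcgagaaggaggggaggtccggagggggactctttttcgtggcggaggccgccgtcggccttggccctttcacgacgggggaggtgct
Positions are counted back from the start, at the motif's first base. In DDIT4 the ACGTG core began at −125 and the CCAAT boxes at −108 and −75. In RICTOR an ACGTG began at −206 and a CCAAT box at −19, with 4 GC boxes, of which those at −184 and −180 overlap. In TSC1 only GC boxes were found, at −219 and −209. Over both strands, ACGTG occurred in 18.5% of 35116 RefSeq promoter windows of this length, CCAAT in 32.0% and GGGCGG in 42.6%. The 7 members with an entry held them in 4, 4 and 5 cases. The letters TGATGNAA, a form of the composite element read by C/EBP and ATF proteins, were in 3.14% of the windows and in 1 member, TSC2. These matches describe letters in a window and no binding was measured.

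The deposited values are log2 intensities made with RMA (robust multi-array averaging), so a difference of 1 stands for 2-fold. Each difference is the value on the first-named array minus that on its reference. A probe set counted as expressed at a log2 value of 6 or more on at least 1 array, which 15503 probe sets for 8429 genes did. Array medians lay between 3.12 and 3.28, and a lower value was taken as not above background, and a difference from it is then given as a bound with the value put at that median. With 1 array per condition there is no replicate check, no error and no test, and the number of arrays limits the precision. The only spread at hand is between probe sets of 1 gene on the same arrays. Over 3492 genes with a pair of expressed probe sets, the difference read by the brightest departed from that read by the next by a median of 0.15 to 0.19 (90th percentile 0.63 to 0.75) in the comparisons with control. In the comparisons of 2DG plus a compound, with 2DG or with the compound, it departed by a median of 0.28 to 0.36 (90th percentile 1.48 to 1.78). This spread does not hold variation between cultures. The poly-A control transcripts read higher than on the control array by 0.35 in 2DG, 1.22 in 2DG+CC, 0.85 in 2DG+VST and 0.67 in 2DG+Phen, and by 0.05 to 0.28 with a compound alone. The part of this shift in the differences below was not tested. On the poly-A scale every difference from 2DG is lower by 0.87 in 2DG+CC, 0.50 in 2DG+VST and 0.32 in 2DG+Phen, and every difference from the compound alone by 1.12, 0.80 and 0.39. Positive differences below these sizes are therefore negative on that scale, and values on it are printed for some of the members only. Of 7 mesenchymal markers 6 reached the limit, S100A4 being the exception, and 0 of 5 epithelial and 0 of 3 blood cell markers did. The summed RNA of a culture was measured, in which fewer cells with a transcript and less of it per cell cannot be told apart.

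DDIT4 was higher with every treatment given alone, and in 2DG it was higher still with CC but far lower with VST or Phen. Its only probe set (202887_s_at) read 6.45 in control, 10.00 in CC, 10.73 in VST, 8.26 in Phen, 8.65 in 2DG, 10.37 in 2DG+CC, 5.19 in 2DG+VST and 5.54 in 2DG+Phen. The last 2 were the lowest of the 8 values and the only ones below control. Against control the difference was +2.20 in 2DG (4.60-fold), +3.55 in CC (11.8-fold), +4.28 in VST (19.5-fold) and +1.81 in Phen (3.50-fold). Among the 15503 expressed probe sets, DDIT4 had the highest difference of all in VST, the 3rd highest in CC, the 35th in 2DG and the 61st in Phen.

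In 2DG medium the compounds parted. Relative to 2DG alone, DDIT4 differed by +1.71 in 2DG+CC (3.28-fold), −3.46 in 2DG+VST (11.0-fold lower) and −3.11 in 2DG+Phen (8.63-fold lower). From the lowest, the VST difference was 76th and the Phen difference 166th among the expressed probe sets, and from the highest the CC difference was 659th. Scaled on the poly-A controls, the CC difference was +0.84 and the others −3.96 and −3.43. Against control, DDIT4 was at +3.91 in 2DG+CC, −1.26 in 2DG+VST and −0.91 in 2DG+Phen.

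**Figure D1:**
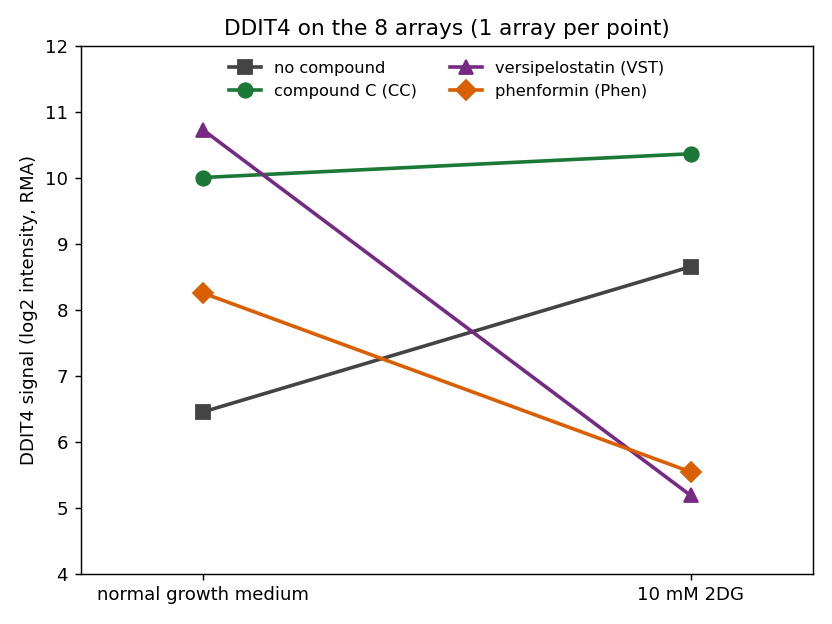
DDIT4 log2 intensity (202887_s_at, vertical axis) on the 8 arrays, 1 point per array, in normal growth medium and in 10 mM 2DG (horizontal axis), with a line for no compound and for each compound. VST went with the highest value in normal medium (10.73) and the lowest in 2DG (5.19), while CC stood at 10.00 and 10.37. There is no error bar because each condition has 1 array.

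With the compound alone as the reference, adding 2DG went with a DDIT4 difference of +0.36 for CC, −5.55 for VST (46.7-fold lower) and −2.71 for Phen (6.56-fold lower). The VST value was the lowest of all expressed probe sets in that comparison and the Phen value the 222nd lowest. The CC value turned to −0.76 on the poly-A scale and −0.21 on the hybridization controls, so it has no settled sign. The effect of 2DG with the compound minus that without it was −1.84 for CC, −7.75 for VST and −4.91 for Phen. In the order VST, 2DG+CC, CC, 2DG, Phen, control, 2DG+Phen and 2DG+VST, the gaps between neighbours were 0.37, 0.36, 1.35, 0.40, 1.81, 0.91 and 0.36. Only the gaps of 1.35 between CC and 2DG and of 1.81 between Phen and control exceeded the 90th percentile of probe set departure for the pair of arrays (0.83 and 0.66). The other neighbours in this order do not differ beyond that spread. DDIT4 spanned 5.55 over the arrays, the 42nd widest span, where the median expressed probe set spanned 1.39.

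On the TSC side of the pathway, TSC1 was higher in 2DG than in control, highest in 2DG+CC and lowest in 2DG with VST or Phen, while the brightest probe sets of TSC2 and RHEB stayed within 2-fold in every comparison of the values as deposited. TSC1, which stabilizes TSC2, read 6.01 in control, 6.16 in CC, 5.26 in VST, 5.69 in Phen, 6.80 in 2DG, 7.90 in 2DG+CC, 5.15 in 2DG+VST and 5.03 in 2DG+Phen (209390_at). The value in 2DG+CC was the highest, and those of 2DG+VST and 2DG+Phen were the lowest, below control as well. Relative to 2DG, TSC1 differed by +1.10 in 2DG+CC, −1.65 in 2DG+VST and −1.77 in 2DG+Phen, and 2DG itself differed from control by +0.79. Relative to CC alone, 2DG+CC was at +1.74. Relative to VST and Phen alone, 2DG+VST was at −0.11 and 2DG+Phen at −0.66. Both lay within the 90th percentile of probe set departure (1.48 and 1.73). So did the CC differences of +1.10 and +1.74 (1.58 and 1.76) and that of 2DG+Phen from 2DG (1.78). The difference of 2DG+VST from 2DG just exceeded it (1.62), and that of 2DG from control exceeded it too (0.66). VST without 2DG was already at −0.75 from control. On the poly-A scale the CC values were +0.23 and +0.62, under 2-fold, and the differences of 2DG+VST and 2DG+Phen from 2DG were −2.14 and −2.08.

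TSC2, the GTPase-activating subunit, read 5.82 in control, 5.83 in CC, 5.90 in VST, 5.89 in Phen, 6.57 in 2DG, 6.51 in 2DG+CC, 6.01 in 2DG+VST and 5.97 in 2DG+Phen (215735_s_at). Of these, the arrays of 2DG, 2DG+CC and 2DG+VST reached the expression limit. Its difference from 2DG was −0.55 in 2DG+VST, or −1.05 on the poly-A scale, past 2-fold. Its other probe set, 215624_at, was not above background on any array. TBC1D7, the remaining subunit of the TSC complex and no member of the set, read 7.45 in control and 7.98 in 2DG, 8.47 in 2DG+CC, 5.98 in 2DG+VST and 6.61 in 2DG+Phen. Relative to 2DG it differed by −2.00 in 2DG+VST and −1.37 in 2DG+Phen.

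RHEB, the GTPase that the TSC complex turns off, read 11.31 in control, 11.42 in CC, 11.50 in VST, 11.24 in Phen, 11.12 in 2DG, 11.94 in 2DG+CC, 11.55 in 2DG+VST and 11.54 in 2DG+Phen on its brightest probe set (201453_x_at). The suffix _x_at marks probes that may match other transcripts too. The 2DG+CC value was the highest, at +0.82 above 2DG, and −0.05 on the poly-A scale. Of the 9 RHEB probe sets, 243008_at was not above background, and the other 8 differed between 2DG+CC and 2DG by −0.39 to +1.85. Of these 8 only 241795_at was negative, so the probe sets do not settle the size of the difference.

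**Figure D2:**
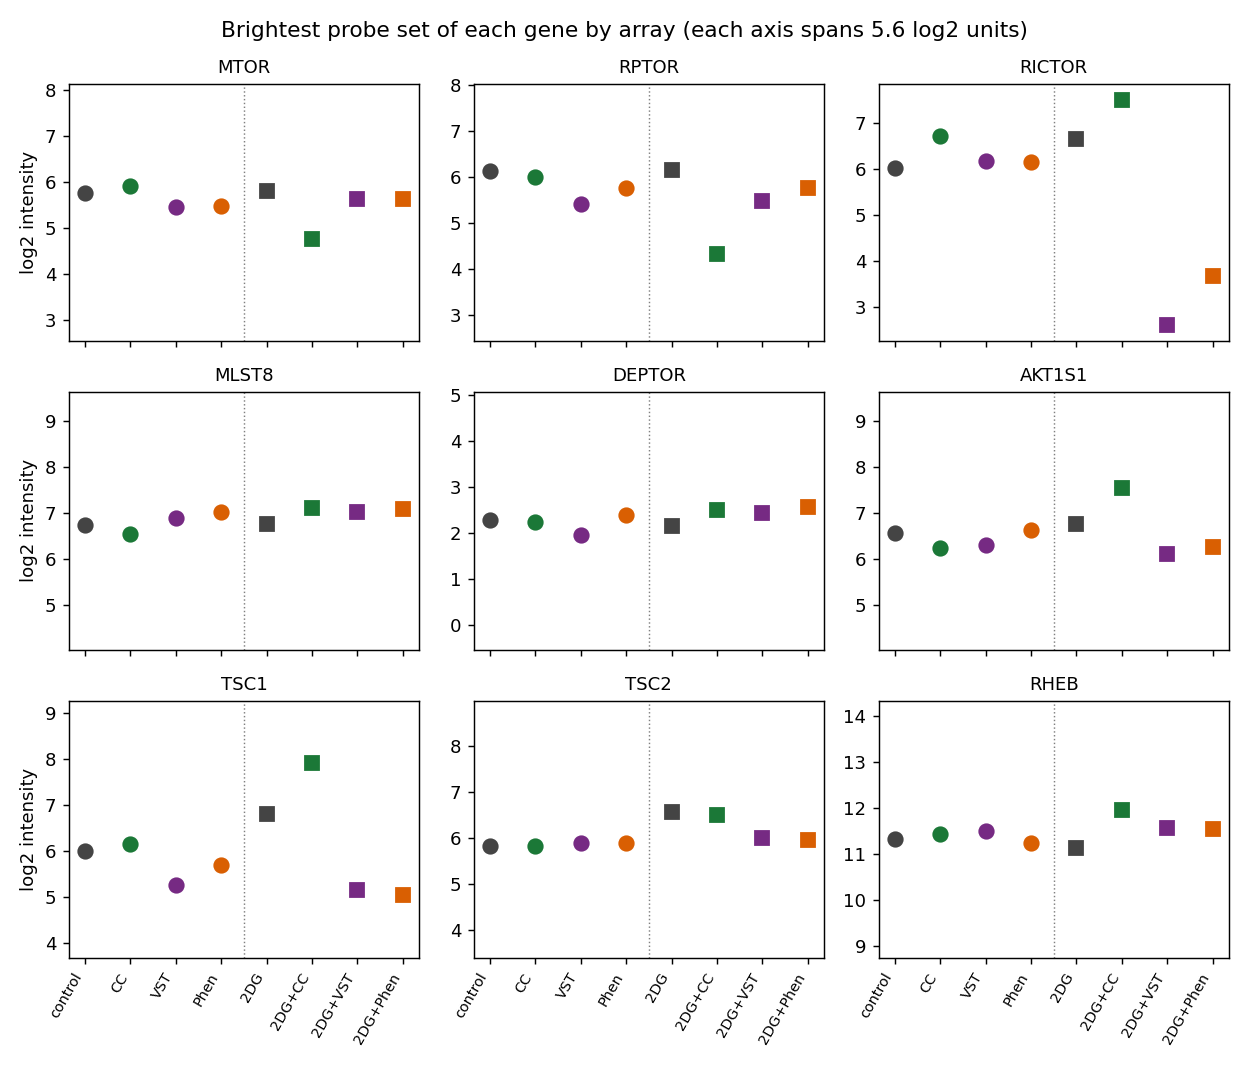
Log2 intensity of the brightest probe set of each of the 9 mTOR complex and TSC genes (vertical axes, the same span in every panel) on the 8 arrays, with circles for normal medium and squares for 2DG. RICTOR and TSC1 stood lowest in 2DG+VST and 2DG+Phen, RPTOR and MTOR stood lowest in 2DG+CC, and DEPTOR stayed below 2.7 throughout. Each point is 1 array, without error.

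Of the mTORC1 subunits, RPTOR was lower in 2DG+CC than anywhere else, while MLST8 varied little. RPTOR read 6.13 in control, 6.01 in CC, 5.42 in VST, 5.77 in Phen, 6.15 in 2DG, 4.32 in 2DG+CC, 5.47 in 2DG+VST and 5.78 in 2DG+Phen (225715_at). Its difference in 2DG+CC was −1.82 from 2DG and −1.68 from CC alone, against +0.02 for 2DG alone. The value of −1.82 exceeded the 90th percentile of probe set departure (1.58), and that of −1.68 did not (1.76). In 2DG+VST and 2DG+Phen RPTOR was −0.67 and −0.37 from 2DG, the first being −1.17 on the poly-A scale. MTOR, the kinase itself, showed the same low point. It read 5.75 in control, 5.91 in CC, 5.44 in VST, 5.48 in Phen, 5.79 in 2DG, 4.75 in 2DG+CC, 5.63 in 2DG+VST and 5.63 in 2DG+Phen (202288_at), so it never reached the expression limit and enters no count below. Its 2DG+CC value was −1.04 from 2DG and −1.15 from CC alone, both within the 90th percentile of probe set departure. A further MTOR probe set, 215381_at, was not above background.

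MLST8, the subunit shared by both complexes, lay between 6.55 in CC and 7.12 in 2DG+CC (220587_s_at). Its span of 0.57 was wider than that of 7.89% of the expressed probe sets. The difference between 2DG+CC and 2DG was +0.35, or −0.52 on the poly-A scale. AKT1S1, the mTORC1 inhibitor, read 6.57 in control, 6.23 in CC, 6.32 in VST, 6.62 in Phen, 6.77 in 2DG, 7.55 in 2DG+CC, 6.11 in 2DG+VST and 6.27 in 2DG+Phen (224982_at). The value in 2DG+CC was the highest, +0.78 from 2DG and +1.31 from CC alone, but −0.09 and +0.19 on the poly-A scale. In 2DG+VST it was −0.66 from 2DG, or −1.15 on that scale. DEPTOR, which inhibits both complexes, was under the array median on every array with both of its probe sets, and no fold is given for it.

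On its brightest probe set, RICTOR, the defining subunit of mTORC2, was lower in 2DG+VST and 2DG+Phen than on every other array. It read 6.03 in control, 6.72 in CC, 6.18 in VST, 6.15 in Phen, 6.66 in 2DG, 7.51 in 2DG+CC, 2.62 in 2DG+VST and 3.67 in 2DG+Phen (226312_at). The 2DG+VST value was not above background, so the difference from 2DG was −3.43 or lower, and in 2DG+Phen it was −2.99 (7.93-fold lower). With the compound alone as the reference, the values were −2.94 or lower and −2.48. In 2DG+CC it was +0.85 from 2DG, or −0.02 on the poly-A scale. RICTOR spanned 4.89 over the arrays, the 135th widest span among the expressed probe sets.

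The other RICTOR probe sets were dim, and 1 of them ran the other way. Probe set 228248_at read 4.03 in 2DG, 5.00 in 2DG+CC, 2.99 in 2DG+VST and 3.14 in 2DG+Phen, and 226310_at read 3.85, 4.99, 2.57 and 2.47 on the same arrays. Both followed the brightest one, with the values in 2DG+VST and 2DG+Phen not above background. Probe set 1552734_at read 2.11 in 2DG and 1.69 in 2DG+CC, both not above background, but 4.60 in 2DG+VST and 3.90 in 2DG+Phen. It was thus at least 1.48 and at least 0.78 higher than in 2DG, where the others were lower. No deposited value tells which part of the transcript each probe set reads, so no direction is given for the gene as a whole.

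**Figure D3:**
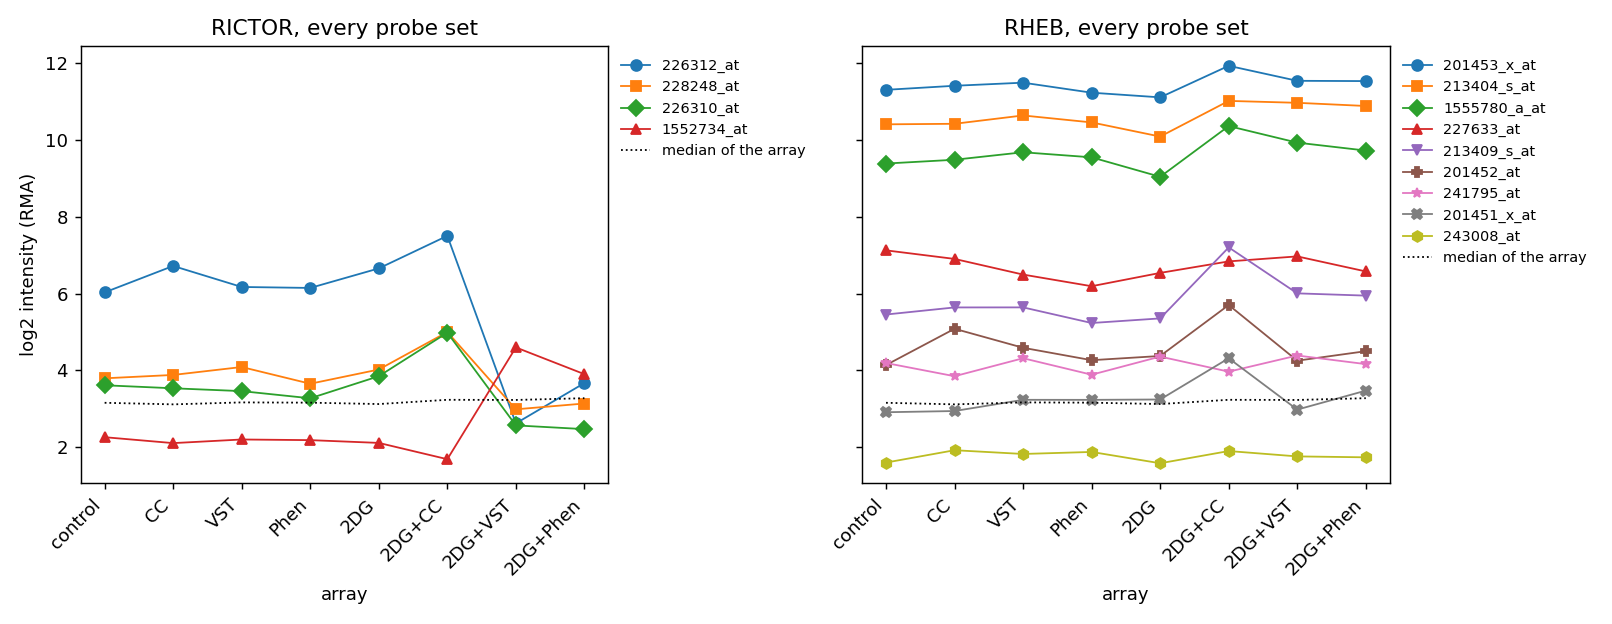
Log2 intensity (vertical axes) of every RICTOR probe set and every RHEB probe set on the 8 arrays, with the median of each array as a dotted line. For RICTOR, 3 probe sets dropped from 2DG+CC to 2DG+VST while 1552734_at went from 1.69 to 4.60. Lines join the values of 1 probe set and carry no time order.

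**Figure D4:**
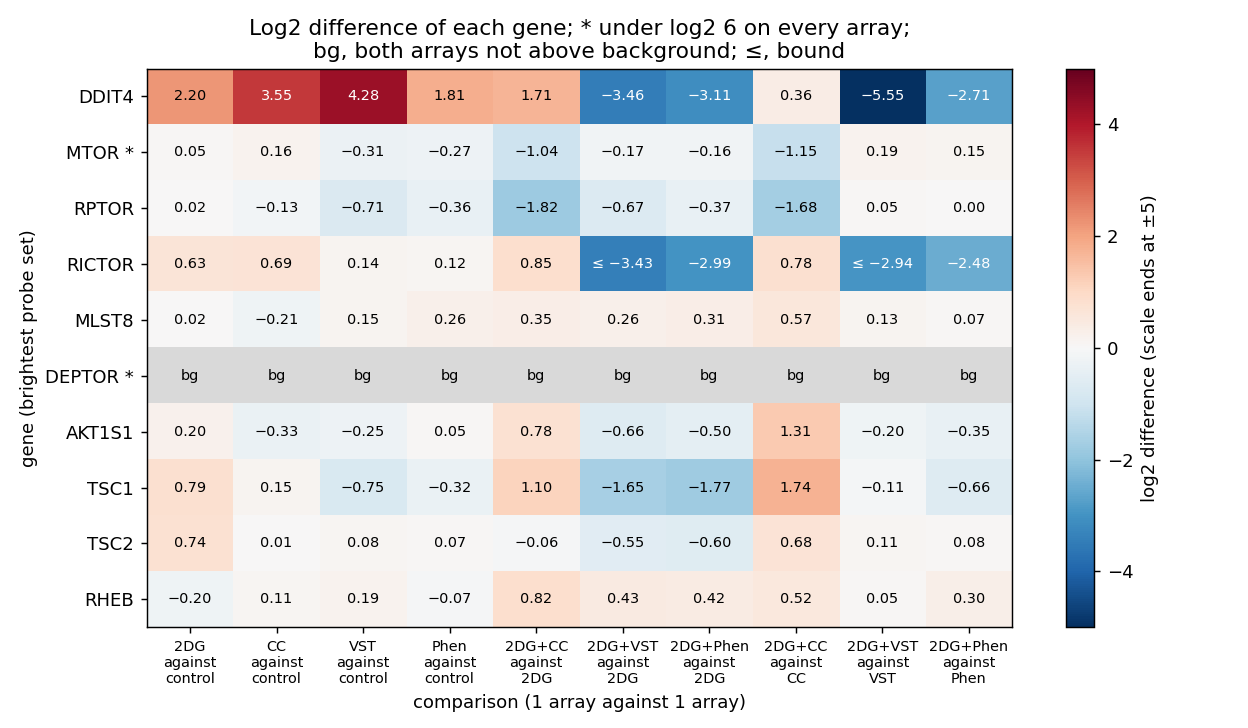
Log2 difference (colour and printed value) of the brightest probe set of each member (rows) in the 10 comparisons (columns). DDIT4 was the only member past 2-fold in the comparisons of single treatments with control, and with VST or Phen in 2DG it was joined by RICTOR and TSC1. Bounds are marked ≤, and bg marks DEPTOR, which was not above background. Differences rest on 1 array against 1 array.

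Counted over members, 8 of the 10 reached the expression limit, all but MTOR and DEPTOR. In the comparisons of a single treatment with control, DDIT4 was the only member at least 2-fold higher and no member was at least 2-fold lower. Of all expressed probe sets, 3.19% were higher and 2.53% lower in 2DG, 4.32% and 2.86% in CC, 2.86% and 3.37% in VST, and 2.75% and 3.09% in Phen. In 2DG+CC against 2DG, DDIT4 and TSC1 were at least 2-fold higher and RPTOR at least 2-fold lower, where the background was 11.0% higher and 23.0% lower. In 2DG+VST and in 2DG+Phen against 2DG, DDIT4, RICTOR and TSC1 were at least 2-fold lower and no member was higher. There the background was 6.95% higher and 18.3% lower for VST, and 7.35% higher and 20.2% lower for Phen. With the compound as the reference, 2DG+CC had AKT1S1 and TSC1 higher and RPTOR lower (background 11.2% and 24.6%). DDIT4 and RICTOR were lower in 2DG+VST against VST (6.39% higher and 15.5% lower over all probe sets) and in 2DG+Phen against Phen (8.11% and 17.7%). RICTOR was counted by its brightest probe set, while its probe set 1552734_at ran the other way in 2DG+VST and 2DG+Phen. These comparisons share reference arrays and are not independent of each other.

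The median over the 8 members that reached the limit was +0.80 in 2DG+CC against 2DG, −0.67 in 2DG+VST and −0.55 in 2DG+Phen, beside −0.13, −0.11 and −0.19 over all expressed probe sets. For the single treatments it was +0.41 in 2DG, +0.06 in CC, +0.11 in VST and +0.06 in Phen, beside +0.01, +0.03, −0.01 and −0.04. These medians describe genes that passed a limit some of them met only on the arrays where they were high.

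Around the members, 67 further genes of the pathway were listed, of which 60 had a probe set and 45 reached the limit. Single treatments moved few of them past 2-fold, with 3 higher and 0 lower in 2DG, 3 and 1 in CC, 2 and 0 in VST, and 1 and 0 in Phen. In 2DG plus a compound most of those past 2-fold were lower than in 2DG, namely 9 of 45 with CC, 14 with VST and 19 with Phen, beside 3, 1 and 2 higher. Most calls over all expressed probe sets were lower too, at 23.0%, 18.3% and 20.2%, and the CC count lies near that share. The medians of the 45 were −0.18, −0.70 and −0.59, where all expressed probe sets had −0.13, −0.11 and −0.19.

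Among the sensors that act upstream of mTORC1, 2 of 6 genes with a probe set reached the limit. SESN2, a stress-induced leucine sensor, read 6.48 in control, 7.64 in CC, 8.06 in VST, 6.83 in Phen, 7.62 in 2DG, 8.82 in 2DG+CC, 6.67 in 2DG+VST and 8.33 in 2DG+Phen. Like DDIT4 it was higher in 2DG (+1.14), CC (+1.16) and VST (+1.58), and relative to 2DG it differed by +1.20 with CC and −0.95 with VST. With Phen it was +0.71 from 2DG, where DDIT4 was −3.11. Its other expressed probe set read +1.52 with CC, −2.37 with VST and −0.04 with Phen, and on the poly-A scale the CC difference of the brightest was +0.34. SESN1, a related p53 target, differed from 2DG by −1.48 with VST and −1.02 with Phen.

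Of the Rag GTPases, the Ragulator complex that anchors them to lysosomes and their partners, 10 of 12 genes with a probe set reached the limit. SLC38A9, a lysosomal arginine sensor, read 6.73 in control, 7.99 in 2DG, 4.35 in 2DG+CC, 5.37 in 2DG+VST and 5.44 in 2DG+Phen. It was +1.26 in 2DG, and the 3 compounds in 2DG were at −3.63, −2.61 and −2.55 from that. RRAGC, a Rag GTPase, was also higher in 2DG (+1.31) and was at −1.81 with VST and −1.24 with Phen, but at −0.14 with CC. RRAGA, another Rag GTPase, was at −1.13 with CC on its single expressed probe set. FNIP2, a partner of folliculin, was at −3.73 with VST and −1.77 with Phen on its brightest probe set. Its other expressed probe sets read −1.51 and −2.40 with VST, and −0.99 and −0.98 with Phen, under 2-fold.

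The probe sets of FNIP1, FLCN and LAMTOR3 opposed each other. FNIP1, the other folliculin partner, was at −3.95 with VST and −1.90 with Phen relative to 2DG on its brighter probe set, but at +3.55 and +1.41 on the dimmer one. FLCN, which encodes folliculin, was +1.09 with CC and +1.77 with Phen on the brighter of its expressed probe sets and −1.61 and −1.96 on the dimmer. LAMTOR3, a Ragulator subunit, was +0.67, +0.80 and +0.86 with CC, VST and Phen on the brighter and −1.33, −1.26 and −1.82 on the dimmer. No direction is given for these genes.

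In the list of PI3K-AKT input, the 2-fold differences of the brightest probe sets in 2DG plus a compound were all downward. PI3K and AKT feed growth factor signals to the TSC complex. The list, its counts and its medians also hold STK11, which acts through AMPK. All 8 genes with a probe set reached the limit, and relative to 2DG 4 were at least 2-fold lower with CC, 6 with VST and 6 with Phen, with 0 higher. Over all expressed probe sets 23.0%, 18.3% and 20.2% were lower and 11.0%, 6.95% and 7.35% higher. The list medians were −1.06, −1.32 and −1.41. PIK3R1, the regulatory subunit of PI3K, read 7.19 in control, 7.20 in 2DG, 5.07 in 2DG+CC, 3.63 in 2DG+VST and 4.34 in 2DG+Phen. IRS1, the adaptor of the insulin receptor, read 7.60 in 2DG, 2.52 in 2DG+CC, 5.55 in 2DG+VST and 5.02 in 2DG+Phen. In 2DG+CC it was not above background, so its difference was −4.36 or lower. STK11, which encodes the AMPK-activating kinase LKB1, was at −1.41, −1.45 and −1.77 with CC, VST and Phen. PIK3CB, a catalytic subunit, was at −1.35, −1.87 and −1.01. PDPK1 and AKT2, kinases further down the line, were at −1.64 and −1.18 with Phen on their brightest probe sets. The other expressed PDPK1 probe sets read −0.99 and +0.27 there, and the other AKT2 probe set −0.085, with +2.07 in 2DG+CC against 2DG.

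Of 4 mTORC2 and assembly factors at the limit, MAPKAP1 (SIN1), an mTORC2 subunit, was at −1.36 with VST and −1.34 with Phen from 2DG, and TTI1, an assembly factor, was at −1.44 with CC and −1.20 with Phen. The other MAPKAP1 probe sets read −0.81 to +0.17 with VST. Of 8 GATOR and KICSTOR genes, the GATOR2 subunits MIOS and WDR59 were at −2.15 and −1.88 with CC. They were also at −1.03 and −1.09 with Phen, and at −0.998 and −0.72 with VST. Of 12 effectors, SGK1, a kinase that mTORC2 activates, was +3.05 with VST and +3.22 with Phen, reading 8.57 in 2DG, 11.62 in 2DG+VST and 11.79 in 2DG+Phen. LARP1, which binds mRNAs of the translation machinery, was at −1.45 and −1.60 on the same arrays. RPS6KB1, which encodes S6 kinase, and EIF4EBP2, a brake on translation, were at −1.28 and −1.29 with Phen. The other RPS6KB1 probe sets read +0.28 and +0.15 there, so no direction is given for it. The other EIF4EBP2 probe set read −0.82 with Phen, under 2-fold, and the brightest was at −0.85 with CC and −0.88 with VST. GRB10, an mTORC1 substrate that dampens insulin signalling, was +2.01 with CC on its brightest probe set, −0.0059 on the next and +1.51 on another. LPIN1, a regulator of lipid synthesis, was at −1.42 in 2DG+CC against CC.

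Of the 4448 genes in 6364 expressed probe sets with an SD of at least 0.5 over the arrays, the 10 whose pattern was most like that of DDIT4 had Pearson r from 0.934 to 0.958. These r values are over 8 arrays of single conditions, which share the 2DG treatment and the compounds, and they are given as a description. The 10 were KDM7A (0.958), PSAT1 (0.958), TUBE1 (0.957), S100P (0.950), PSPH (0.950), SLC7A1 (0.944), ZNF558 (0.944), MDM4 (0.937), IAH1 (0.937) and TES (0.934). They were picked on these same arrays, so sharing the highs and lows of DDIT4 follows from the choice. KDM7A, S100P and ZNF558 reached the expression limit only in CC, VST, 2DG and 2DG+CC, the arrays with the highest DDIT4 values. PSAT1 and PSPH catalyse neighbouring steps of serine synthesis, SLC7A1 carries cationic amino acids, KDM7A is a histone demethylase, MDM4 restrains p53 and TES is a focal adhesion protein.

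PSAT1 read 8.21 in control, 9.87 in CC, 9.95 in VST, 9.02 in Phen, 9.24 in 2DG, 9.36 in 2DG+CC, 7.62 in 2DG+VST and 8.29 in 2DG+Phen. KDM7A read 4.77, 6.38, 7.31, 5.36, 6.24, 6.12, 3.42 and 3.99 on the arrays in the same order. Both were highest in VST and lowest in 2DG+VST, as DDIT4 was, but with CC in 2DG they differed from 2DG by +0.11 and −0.12, against +1.71 for DDIT4. In pathway genes outside the set, the closest pattern was that of TBC1D7 (r 0.92, rank 13), and GRB10 followed (r 0.90, rank 26, on its next brightest probe set). Of the members, RICTOR had r 0.84, TSC1 0.54, AKT1S1 0.44, TSC2 0.26, RHEB 0.17, MLST8 −0.28 and RPTOR −0.35.

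**Figure D5:**
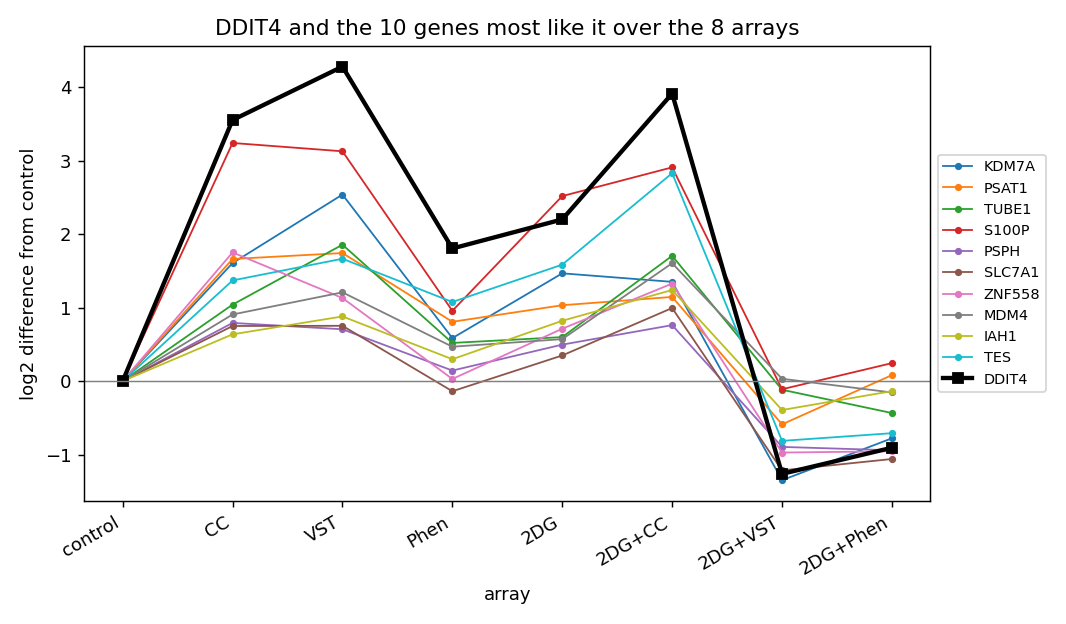
Log2 values of DDIT4 and of the 10 genes with the most similar pattern, each less its own value in control (vertical axis), on the 8 arrays (horizontal axis). All were above control in CC and VST, and all were lower in 2DG+VST and 2DG+Phen than in 2DG. The genes were picked for likeness on these same arrays, so these shared highs and lows follow from the choice. Lines join values of 1 gene and carry no time order.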

How the data were processed

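HT1080 RNA (100 ng per labelling) was hybridized to 8 Affymetrix U133 Plus 2.0 arrays, 1 for each condition. The table the authors deposited holds log2 intensities from RMA, which corrects background, normalizes between arrays and summarises probes. The software that ran it is not given in the sources used here. Probe intensity files were not used here, and no column of the table was left unassigned. RMA equalizes the arrays' distributions, so a shift shared by most transcripts would not appear in these values.

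Gene symbols came from the platform annotation, updated through Entrez identifiers with the RefSeq gene table, and 41097 probe sets carried 1 symbol, 1801 several and 11777 none. Counts took no control probe set (62 on the array), and 24 poly-A and 18 hybridization control probe sets gave 2 further scales, each the median over these probe sets of the difference from the control array. The log2 limit of 6, the threshold of 2-fold and the brightest probe set of a gene (highest mean over the arrays) were used for counts. The 10 comparisons set 2DG and each compound against control, and 2DG plus a compound against 2DG and against the compound. No test was run, since each condition has 1 array.

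Named are all 10 members, the genes of 7 pathway lists that differed at least 2-fold in a comparison (up to 4 per list and comparison), and the 10 genes with the highest Pearson r to DDIT4. The members and lists were chosen with earlier results of these data known. Promoter sequences came from RefSeq (GRCh38.p14), with entries for 7 of 10 members and 9 of the 10 genes most like DDIT4, and both strands were searched.

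Alternatives were folds of 1.5 and 3, limits of 5 and 7 and none, centring, quantile normalization, both control scales, other probe sets of a gene, no _x_at probe sets, Spearman rho and an SD of 1. The count of probe sets past a fold was run on simulated data and recovered 200 of 200 planted. The planted differences were well past the threshold and the simulated noise was smaller than the departure between probe sets here. Full recovery was thus near certain, and it checks the counting only, not the 2-fold calls in these data. The work was done with pandas 2.3.3, numpy 2.4.6 and scipy 1.17.1 under Python 3.11.15, and plots with matplotlib 3.10.9.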

Additional observations from a re-analysis of the deposited data

Results flagged for a closer look

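For 4 genes the same treatment went with opposite differences in the presence and absence of another agent, both at least 2-fold on the brightest probe set. Opposite signs with 1 or both under 2-fold were not counted. Each value is 1 array against 1 array, and the difference was not tested. DDIT4 was higher with VST in normal medium but differed by −3.46 with VST in 2DG, and it was higher with Phen in normal medium but differed by −3.11 with Phen in 2DG. Read the other way, 2DG alone went with a higher DDIT4 value, while 2DG added to VST differed by −5.55 and 2DG added to Phen by −2.71. SLC38A9 was +1.26 in 2DG alone, and with 2DG added to a compound it differed by −1.59 for CC, −1.73 for VST and −1.15 for Phen. SESN2 was +1.14 in 2DG alone and differed by −1.39 when 2DG was added to VST. IRS1 was +1.07 with Phen in normal medium and differed by −2.58 with Phen in 2DG. On the poly-A scale differences from control are lower by 0.35 in 2DG and 0.28 in Phen. This puts the single-treatment values of SLC38A9, SESN2 and IRS1 under 2-fold, while those of DDIT4 stay past it.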

How the results depend on the processing

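Each result rests on 1 array per condition, on signal over background and on the probe sets chosen, and no array could be left out. No paired analysis was possible because every condition has 1 array, with the same replicate number. DDIT4 kept its direction in 9 of 10 comparisons under every scale tried, the exception being 2DG+CC against CC. Centring and quantile normalization moved no DDIT4 difference by more than the typical departure between probe sets. Centring removes a shift of −0.19 to −0.28 in the median of the expressed probe sets in the comparisons of 2DG plus a compound. It thus raises every difference there by the size of that shift.

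On the poly-A scale DDIT4 differed by 1.85 in 2DG and 1.52 in Phen from control, by 0.84 in 2DG+CC and −3.96 in 2DG+VST from 2DG, and by −0.76, −6.35 and −3.10 in 2DG+CC, 2DG+VST and 2DG+Phen from the compound alone. On the hybridization scale it was 1.99 in 2DG and 3.38 in CC from control, 1.17, −3.79 and −3.48 in 2DG+CC, 2DG+VST and 2DG+Phen from 2DG, and −0.21, −6.03 and −3.15 from the compound alone.

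At 1.5-fold the members past the threshold were 4 in 2DG, 2 in CC, 3 in VST, 6 in 2DG+CC and 5 in 2DG+VST against 2DG, and 5 in 2DG+CC against CC. In 2DG+CC against 2DG they were 5 after centring (RICTOR and RHEB added) and 1 on the poly-A scale (RPTOR, as DDIT4 and TSC1 fell short), and in 2DG+VST against 2DG 6 on the poly-A scale (RPTOR, AKT1S1 and TSC2 added). In 2DG+CC against CC they were 5 after quantile normalization (RICTOR and TSC2 added) and 1 on the poly-A scale. With the second brightest probe set the count was 0 in all 10 comparisons, because RHEB alone among the members has a second expressed probe set.

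Of the pathway genes, those past 1.5-fold were 11 in 2DG, 11 in CC, 12 in VST and 7 in Phen, 22 in 2DG+CC and 30 in 2DG+VST against 2DG, and 25 in 2DG+VST against VST. Past 3-fold they were 0, 0, 1 and 0 in the single treatments, 6, 9 and 10 against 2DG with CC, VST and Phen, and 9, 10 and 6 against the compound. On the poly-A scale they were 26 in both 2DG+CC and 2DG+VST against 2DG, and 30 in both 2DG+CC against CC and 2DG+VST against VST. On the hybridization scale they were 1 in CC, 0 in Phen and 25 in 2DG+VST against 2DG. The median over probe sets gave 2 in CC and 10 in 2DG+Phen against Phen. The second brightest probe set, which 22 of 67 genes have, gave 6 in 2DG, 2 in Phen, 7 and 8 in 2DG+VST and 2DG+Phen against 2DG, and 9, 8 and 3 against CC, VST and Phen. The cause was not tested.

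Reversed values came with other probe sets of a gene. Relative to 2DG, the second brightest gave FLCN −1.61 and GRB10 −0.0059 with CC, MAPKAP1 0.17, FNIP1 3.55 and PDPK1 0.014 with VST, and FLCN −1.96, FNIP1 1.41, PDPK1 0.27 and RPS6KB1 0.28 with Phen. Relative to the compound, it gave PDPK1 0.49, RPS6KB1 0.999 and GRB10 −0.57 with CC, LAMTOR3 −1.09, FLCN −1.04 and FNIP1 4.20 with VST, and LAMTOR3 −0.92, FLCN −0.55, PDPK1 0.36, RPS6KB1 0.15 and GRB10 −1.27 with Phen. The median over probe sets gave FLCN −0.26 with CC and −0.10 with Phen and PDPK1 0.014 with VST relative to 2DG, and FNIP1 0.48 in 2DG+VST against VST. Of the 10 genes most like DDIT4, 3 were among the 10 by Spearman rho, 4 at an SD of at least 1 and 8 after centring.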
